A study of Mus musculus with 6 samples.

Results

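A pair of serum-free media for mouse embryonic stem cells (ESCs) were compared by small RNA sequencing. The members of the comparison were all 1907 mature miRNAs in the deposited count table, read in 4 of its 6 libraries, which were the 2i and R2i libraries of the ESC lines RB18 and RB20. Both media had the same serum-free base with 1000 U/ml LIF and 1 µM PD0325901, an inhibitor of MEK. The 2i medium also held 3 µM CHIR99021, an inhibitor of GSK3, and the R2i medium instead held 10 µM SB431542, an inhibitor of TGF-β receptors. The other 2 libraries came from the same lines in 15% serum with LIF and no inhibitor, and entered the model of the spread. The strain of both lines was C57BL/6. R2i was the medium of derivation, and the 2i and serum cells descended from R2i cells kept in the new medium for 10 or more passages. Each library was made from a pool of 3 cultures, so the 2 libraries of a medium differ by line, and p-values measure only the spread between these pools. A difference between 2i and R2i therefore joins the presence of CHIR99021, the absence of SB431542 and the history of the cells, which cannot be told apart.

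ESCs in either medium are held in a naive state of pluripotency. Inhibition of GSK3 stabilizes β-catenin, the effector of canonical Wnt signaling, whereas inhibition of the type I receptors of the TGF-β family blocks signaling by activin, Nodal and TGF-β through SMAD2 and SMAD3. miRNAs are made as hairpins whose 5p or 3p arm guides Argonaute to mRNAs, mainly by pairing of bases 2 to 8, the seed. miRNAs that share a seed are expected to share many targets, and those from 1 primary transcript often share their level.

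Sequences are shown for a choice of the miRNAs described below and for relatives with the same seed. Each is a mature RNA in 5′ to 3′ direction with the seed in capitals. The sequences are from RefSeq (GRCm38.p6), which gave a sequence for 16 of the 20 miRNAs looked up. The seed of miR-211-5p is also that of miR-204-5p, and the strands were identical at 21 of 22 bases. The seed of miR-152-3p is also that of miR-148a-3p and miR-148b-3p, while miR-302d-3p of the miR-302/miR-367 cluster has that of miR-294-3p and miR-295-3p.
miR-211-5p: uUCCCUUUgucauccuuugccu
miR-211-3p: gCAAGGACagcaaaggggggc
miR-204-5p: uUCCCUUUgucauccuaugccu
miR-152-5p: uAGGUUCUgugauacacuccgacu
miR-152-3p: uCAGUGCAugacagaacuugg
miR-148a-3p: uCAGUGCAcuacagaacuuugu
miR-148b-3p: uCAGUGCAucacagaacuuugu
miR-142a-5p: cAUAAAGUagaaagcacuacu
miR-181c-5p: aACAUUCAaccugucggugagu
miR-181d-5p: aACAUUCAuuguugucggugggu
miR-302d-3p: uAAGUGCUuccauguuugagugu
miR-294-3p: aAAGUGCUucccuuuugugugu
miR-295-3p: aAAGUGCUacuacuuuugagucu
miR-34a-5p: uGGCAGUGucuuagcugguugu
miR-34b-5p: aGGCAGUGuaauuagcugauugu

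Counts assigned to miRNAs ranged from 1041858 in R2i RB18 to 3593356 in R2i RB20, with 2057602 and 3365676 in 2i. RB18 had the smaller library in both media, so line and depth cannot be told apart. Per library, the ESC-specific miR-290/miR-295 cluster took 39.2% to 42.8% of the counts of the 4 libraries. At least 1 count in a 2i or R2i library was found for 1148 miRNAs, and 571 passed the filter on low counts and were tested. Levels are given as counts and as CPM, counts scaled to a common library size by TMM. Differences are log2 fold changes of 2i over R2i from edgeR's quasi-likelihood test, in which a positive value is higher in 2i, and p-values were adjusted by Benjamini-Hochberg over the 571.

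By the test, 2 miRNAs had a higher level in 2i and 0 in R2i at an adjusted p under 0.01 and more than 2-fold, which is 0.35% and 0% of the tested miRNAs. At an adjusted p under 0.05 the numbers were 3 (0.525%) and 0 (0%). Those 3 were both arms of miR-211 and the 5p arm of miR-152. With the cell line as a block, 0 passed at 0.01 and 4 higher in 2i passed at 0.05, and in a fit to the 2i and R2i libraries alone 0 and 3 passed. DESeq2, run on the same counts, called 8 higher in 2i and 6 higher in R2i at 0.01. These included miR-142a-5p and miR-146a-5p on the side of 2i. On that of R2i they included miR-34c-5p, miR-10a-5p, miR-302a-5p, miR-669l-5p and miR-1a-3p. At an unadjusted p under 0.05 in the main fit, 43 miRNAs were higher in 2i (7.53%) and 61 higher in R2i (10.7%). With the 5 most abundant miRNAs left out of the whole fit, the numbers were 34 and 80 of 563 tested. The libraries of the media did not overlap for 326 miRNAs (57.1%), of which 171 were higher in 2i (29.9%) and the rest higher in R2i (27.1%). The median log2 fold change of all tested miRNAs was 0.01. No permutation of 2 libraries against 2 gives a two-sided p below 0.33, so the p-values rest on the spread that edgeR shares between miRNAs.

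**Figure D1:**
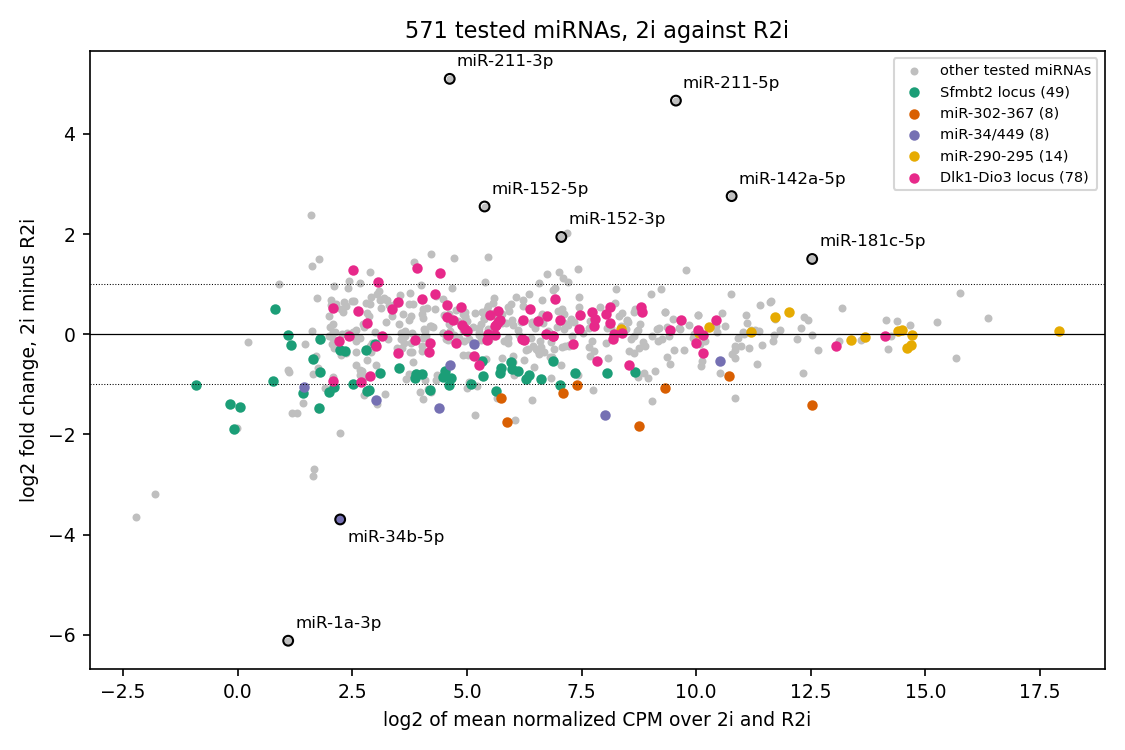
Log2 fold change of 2i over R2i (vertical axis) against the log2 of the mean normalized CPM over the 4 libraries (horizontal axis) for the tested miRNAs, with 5 groups colored and dotted lines at 2-fold. The arms of miR-211 lie at 4.66 and 5.10, the points of the Sfmbt2 locus and of miR-302/miR-367 lie mostly below 0, and miR-34b-5p and miR-1a-3p, the lowest labelled points, are at counts of 17 or fewer in each 2i and R2i library.

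miR-211-5p had the most counts of the miRNAs that passed. It is known as an abundant miRNA of the pigment cell lineage, where its host gene Trpm1 is a target of MITF. Its hairpin lies on chromosome 7, from 64205806 to 64205911 (GRCm38), in an intron of Trpm1 and on the same strand. miR-211-5p had 2390 and 5712 counts in 2i (RB18, RB20), 41 and 268 in R2i, and 107 and 102 in serum. In CPM this was 1161 and 1744 in 2i, 35.2 and 76.7 in R2i, and 58.6 and 50.6 in serum. Both 2i libraries were far above the other 4, and the levels in R2i spanned those in serum. The mean ± SD of the 2 libraries was 1453 ± 411.99 CPM in 2i and 55.9 ± 29.3 CPM in R2i. The log2 fold change was 4.66 (SE 0.44, 95% confidence interval 3.64 to 5.68, adjusted p = 0.00213, edgeR quasi-likelihood test with Benjamini-Hochberg adjustment). The difference in log2(CPM + 1) was 5.01 in RB18 and 4.49 in RB20.

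The other arm, miR-211-3p, had 86 and 175 counts in 2i, 3 and 3 in R2i and 5 and 6 in serum. The groups did not overlap, and the R2i libraries were at the 3 counts taken as the smallest level this depth can show. Pooled and scaled by library size, the 2i counts were 38.02 times those in R2i, with an interval of 17.2 to 105 that covers counting error only. Its fitted log2 fold change of 5.10 (SE 0.47, adjusted p = 0.00213, edgeR) depends on the prior count at such levels. Under the block the adjusted p-values were 0.0174 for miR-211-5p and 0.0176 for miR-211-3p, both past 0.05 and not 0.01, and in the fit to 4 libraries 0.0267 for each. Without serum RB18 the adjusted p was 0.0123 for both arms, and for miR-211-3p it was 0.0138 without 2i RB20 and 0.0342 without R2i RB20. Over the 15 alternatives the log2 fold change of miR-211-5p ranged from 4.28 to 5.38 and its adjusted p from 5.97e-34 to 0.0267.

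miR-204-5p, the relative of miR-211-5p from an intron of Trpm3 on chromosome 19, was near the smallest detectable level. It had 9 and 20 counts in 2i, 1 and 8 in R2i and 10 and 8 in serum. A log2 fold change of 1.498 (SE 0.62, adjusted p = 0.26, edgeR) did not pass. Of the CPM carried by the seed of miR-204 and miR-211, miR-211-5p supplied 99.6% and 99.7% in 2i and 97.6% and 97.1% in R2i. The summed level of this seed was 1166 and 1750 CPM in 2i, and 36.0 and 78.9 in R2i.

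The third miRNA that passed, at 0.05, was miR-152-5p. miR-152 belongs to the miR-148 and miR-152 family, whose 3p arms are known to target the DNA methyltransferase Dnmt1. Its hairpin lies on chromosome 11, from 96850393 to 96850465, in an intron of Copz2 on the same strand. Its smallest count was 13, in R2i RB18. The CPM of miR-152-5p were 62.2 and 80.9 in 2i, 11.2 and 12.9 in R2i and 26.3 and 51.1 in serum, so that serum lay between the other media. The log2 fold change was 2.55 (SE 0.37, adjusted p = 0.0312, edgeR). That call was lost without 2i RB20 (adjusted p = 0.119), R2i RB18 (0.128) or R2i RB20 (0.113).

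The 3p arm, miR-152-3p, had 161 and 264 CPM in 2i, 42.9 and 66.1 in R2i and 72.3 and 110 in serum, again with serum between the other media. Its log2 fold change was 1.94 (SE 0.37, adjusted p = 0.0714, edgeR), and it passed 0.05 with the cell line as a block (adjusted p = 0.0277). Within the lines the difference in log2(CPM + 1) was 1.88 in RB18 and 1.98 in RB20. Most of the reads with its seed came from miR-148a-3p, at 11228 and 12714 CPM in 2i and 11786 and 14144 in R2i. The family seed as a whole summed to 13510 and 15085 CPM in 2i and 13629 and 16524 in R2i, of which miR-152-3p was 1.19% and 1.75% in 2i and 0.315% and 0.4% in R2i. The summed level thus differed by -0.01 (RB18) and -0.13 (RB20) on the log2 scale.

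**Figure D2:**
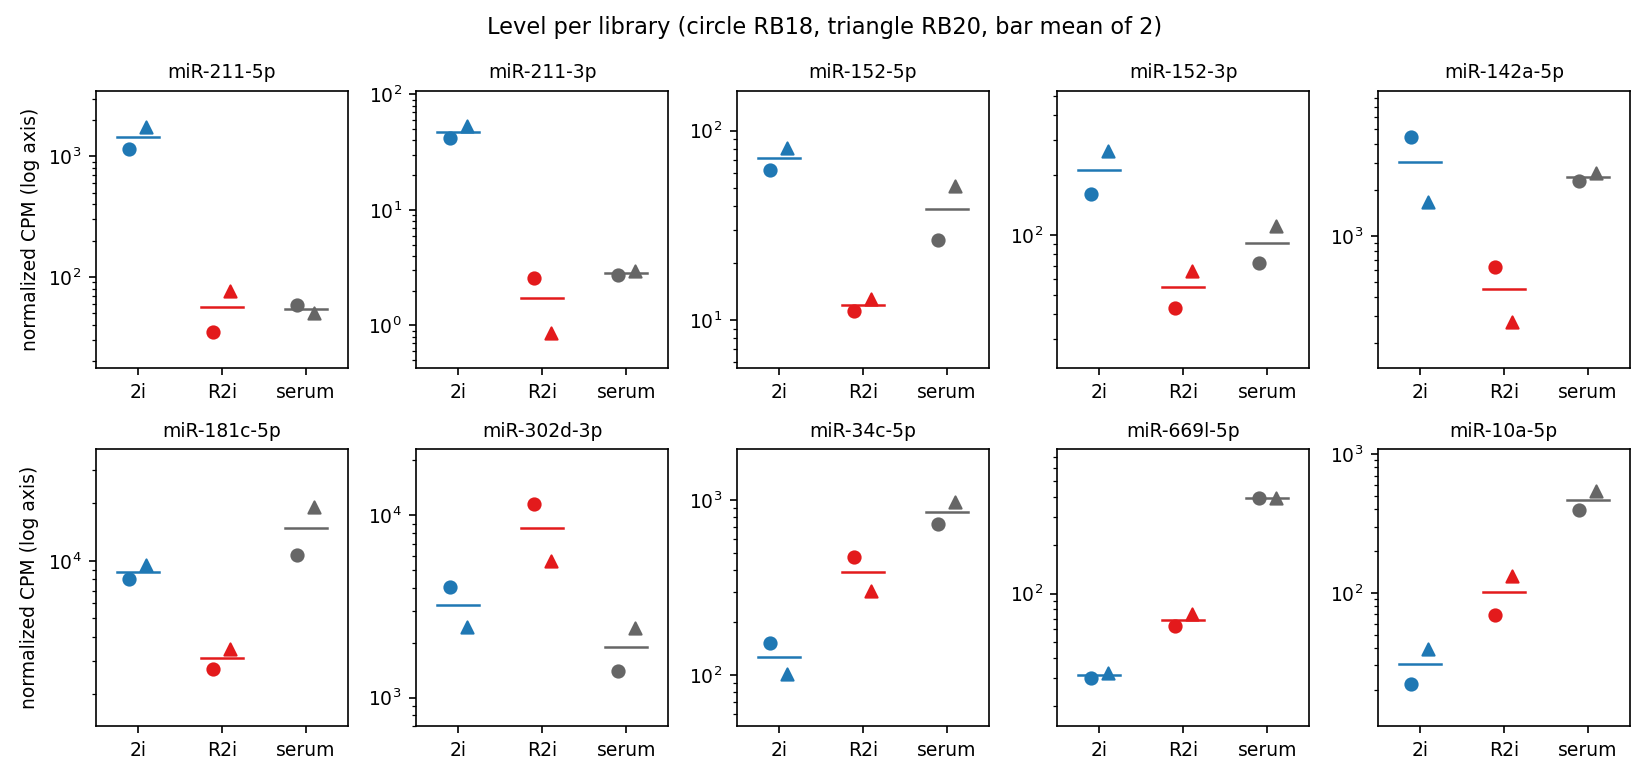
Normalized CPM on log axes for 10 miRNAs in the 2i, R2i and serum libraries, with circles for RB18, triangles for RB20 and a bar for the mean of 2. miR-211-5p stands at 1161 and 1744 in 2i against 35.2 and 76.7 in R2i, and of the 10 miRNAs, both arms of miR-211 and miR-152-5p passed the test without a block.

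Beyond these, the miRNAs with the next smallest p-values had adjusted p-values from 0.0714 upward and are given by their values. miR-142a-5p, a miRNA known from blood cells, had 4436 and 1664 CPM in 2i, 630 and 277 in R2i and 2278 and 2582 in serum. R2i was the lowest medium. RB18 lay above RB20 in both 2i and R2i, and the lines differed less in serum. Within the lines, the difference between 2i and R2i in log2(CPM + 1) was 2.81 in RB18 and 2.58 in RB20. Its log2 fold change was 2.76 (SE 0.55, adjusted p = 0.0714, edgeR), and that of miR-142a-3p 2.03 (adjusted p = 0.183). The other 8 tested miRNAs of a list of blood and endothelial miRNAs lay between -0.88 (miR-451a) and 0.26 (miR-486a-5p). miR-223-3p, which marks myeloid cells, had 0 counts in all 6 libraries. The whole list, of which miR-142a-5p was the largest part in 2i, summed to 5994 and 2982 CPM in 2i and 2400 and 1665 in R2i.

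miR-181c-5p and miR-181d-5p come from 1 stretch of chromosome 8 in an intron of Nanos3, a gene of the germ line. miR-181c-5p had 8034 and 9469 CPM in 2i, 2729 and 3450 in R2i, and 10700.1 and 19210 in serum. The log2 fold change was 1.502 (SE 0.32, adjusted p = 0.0714, edgeR) and that of miR-181d-5p was 1.28 (adjusted p = 0.16). miR-181a-5p and miR-181b-5p, which have the same seed and other genes, had log2 fold changes of -0.81 and -0.95 (adjusted p = 0.286 and 0.336). miR-181c-5p supplied between 79.9% and 87.2% of the reads with this seed in the 4 libraries, and the summed level was higher in 2i by 1.46 in RB18 and 1.33 in RB20 on the log2 scale.

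miR-146a-5p, a miRNA of NF-κB signaling, had 279 and 211.9 CPM in 2i, 84.1 and 113 in R2i and 452 and 424 in serum, so that R2i was the lowest medium. Its log2 fold change was 1.31 (SE 0.27, adjusted p = 0.0714, edgeR). On a list of 30 tested miRNAs linked to TGF-β signaling in other cells, 0 passed the test, and 5 favored 2i and 0 favored R2i at an unadjusted p under 0.05, where the shares of all tested miRNAs were 7.53% and 10.7%. These 5 were miR-146a-5p, both arms of miR-181c, miR-181d-5p and miR-143-3p. The genes of miR-181c and miR-181d lie close together in Nanos3, so that few loci made up this count. The list had 19 positive and 11 negative log2 fold changes and a median of 0.17. miR-21a-5p, a miRNA whose processing is known to be promoted by SMADs, had 2778 and 2385 CPM in 2i and 3296 and 2664 in R2i. Serum was far above both, at 17081.5 and 17091.1 CPM. The log2 fold change of miR-21a-5p between 2i and R2i was -0.21 (SE 0.23, adjusted p = 0.679, edgeR).

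The list of miRNAs linked to Wnt and β-catenin held 46 tested members, among them miR-211, the miR-290/miR-295 and miR-302/miR-367 clusters, miR-183, miR-96 and miR-182 and miR-34. The list also took in miRNAs whose host gene is linked to MITF in other cells, as Trpm1 of miR-211 is. It was chosen with earlier results of these data known. Both arms of miR-211 passed, and 0 others did. At an unadjusted p under 0.05, 5 leaned to 2i and 11 to R2i, against 7.53% and 10.7% of all tested miRNAs. Those 5 were both arms of miR-211 and 3 members of the miR-183, miR-96 and miR-182 cluster. Of the 11, 7 belonged to the miR-302/miR-367 cluster, so that few loci made up these counts. The median was -0.04, against 0.01 over all. Its log2 fold changes ran from -3.70 (miR-34b-5p) to 5.10 (miR-211-3p).

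In the direction of R2i, none passed the edgeR test. DESeq2 called 16 of all 571 tested miRNAs in this direction at an adjusted p under 0.05 and more than 2-fold. Of these, 4 were among the 8 tested of the miR-302/miR-367 cluster and 4 among the 49 tested of the Sfmbt2 locus. The miR-302/miR-367 cluster is known from primed and early differentiating cells and lies in an intron of Larp7 on the opposite strand of chromosome 3. Each of its 8 tested miRNAs had a negative log2 fold change, which 49.2% of all tested miRNAs did. Their median was -1.22, with a range of -1.82 (miR-302a-5p) to -0.83 (miR-302b-3p), and 7 had an unadjusted p under 0.05, against 10.7% of all tested miRNAs in this direction. The most abundant, miR-302d-3p, had 4031 and 2438 CPM in 2i, 11506 and 5615 in R2i, and 1395 and 2413 in serum. R2i RB18 stood above the other libraries, and 2i RB20 lay close to the higher serum library. Its log2 fold change was -1.40 (SE 0.44, adjusted p = 0.171, edgeR). Of all counts, the cluster held 0.658% (RB18) and 0.392% (RB20) in 2i and 1.96% and 0.798% in R2i. All 8 were lower in 2i than in R2i in both lines, as were 34.7% of all tested miRNAs, with medians of -1.40 in RB18 and -0.90 in RB20. Without R2i RB18 all 8 were again negative, but the median was -0.47 and 0 had an unadjusted p under 0.05. That number was 1 without 2i RB20 and 4 under a block for the line.

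The dominant miRNAs with the same seed belong to the miR-290/miR-295 cluster. miR-295-3p, the most abundant miRNA of the 4 libraries, had 258231 and 245394 CPM in 2i and 224733 and 254804 in R2i. The groups overlapped, with a log2 fold change of 0.07 (SE 0.23, 95% confidence interval -0.47 to 0.61, adjusted p = 0.925, edgeR). Over 5 miRNAs with this seed whose sequence was at hand (miR-291a-3p, miR-294-3p, miR-295-3p, miR-302b-3p and miR-302d-3p), the sum was 299352 and 282957 CPM in 2i and 274395 and 295490 in R2i. miR-302d-3p was 1.35% and 0.862% of this sum in 2i and 4.19% and 1.90% in R2i. The miR-290/miR-295 cluster had 14 tested members, none of which had an unadjusted p under 0.05. Their log2 fold changes ran from -0.28 (miR-292a-5p) to 0.45 (miR-291b-3p) with a median of 0.06, whose sign turned under some alternatives.

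**Figure D3:**
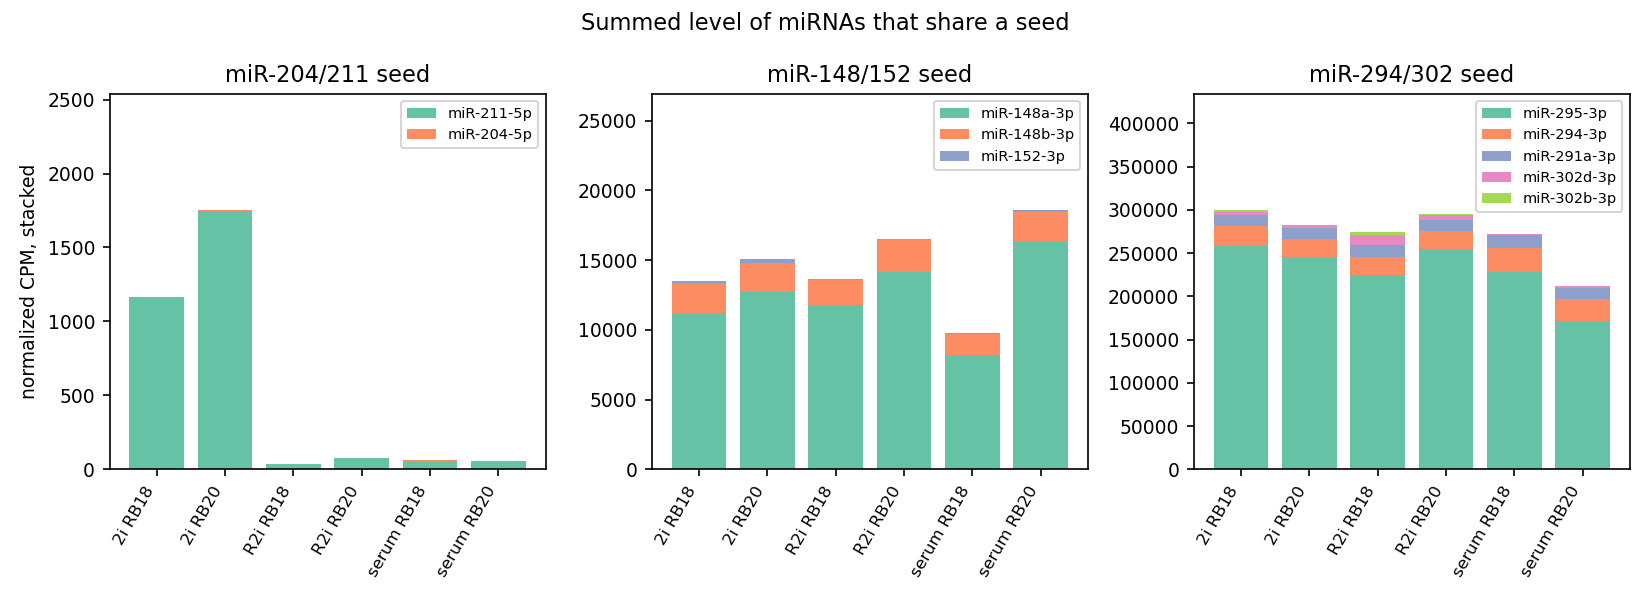
Summed normalized CPM of miRNAs that share a seed, stacked by miRNA, for each of the 6 libraries, with a separate linear axis per seed. The seed of miR-204 and miR-211 sums to 1166 and 1750 in 2i against 36.0 and 78.9 in R2i, whereas the miR-148 and miR-152 seed lies between 13510 and 16524 in the 2i and R2i libraries and the miR-294 and miR-302 seed between 274395 and 299352.

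The rodent-specific miRNAs in an intron of Sfmbt2, an imprinted gene on chromosome 2, made the largest group on the side of R2i. Of 49 tested, 48 had a negative log2 fold change and 0 passed the test. Their median was -0.80, and 24 were higher in R2i at an unadjusted p under 0.05, which is set against 10.7% of all tested miRNAs. The libraries did not overlap for 41 of the 49, and 42 were lower in 2i in both lines, where the shares among all tested miRNAs were 27.1% and 34.7%. The exception in sign was miR-669p-3p (0.51). Summed over the locus, the level was 1565 and 1488 CPM in 2i, 2539 and 2693 in R2i and 12481 and 14134 in serum, so that the lines lay close within each medium. For 47 of the 49, the mean level was highest in serum and lowest in 2i, an order held by 163 of all 571. The filter on low counts took in the serum libraries, so members that passed it only through serum were bound to be high there. In the fit to the 2i and R2i libraries alone, 37 members of the locus were tested, and all 37 were negative, with a median of -0.81. Many members are near copies of each other, and 13 of the 49 have more than 1 gene, so that their reads are not independent.

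miR-669l-5p had the smallest p of the locus, with 30.1 and 32.4 CPM in 2i, 62.6 and 74.7 in R2i and 390 and 394 in serum. Its log2 fold change was -1.14 (SE 0.24, 95% confidence interval -1.70 to -0.58, adjusted p = 0.0714, edgeR). miR-467e-5p had 70.0 and 66.9 CPM in 2i and 127.8 and 124.7 in R2i, which was a log2 fold change of -0.88 (SE 0.24, adjusted p = 0.15, edgeR). Both had 2i below R2i and R2i below serum, with little spread between the lines. Leaving out R2i RB20 gave the median of the locus closest to 0, at -0.67, and 10 members at an unadjusted p under 0.05 in place of 24, and leaving out 2i RB20 gave 11.

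The miR-34 and miR-449 family, of which the miR-34 genes are known as targets of p53, also lay on the R2i side. All 8 tested members had a negative log2 fold change, with a median of -1.18, and 5 had an unadjusted p under 0.05. Of all tested miRNAs, 49.2% were negative and 10.7% were higher in R2i at that p. miR-34c-5p had 152.1 and 102 CPM in 2i, 477 and 304 in R2i and 734 and 980 in serum. The media did not overlap, and the log2 fold change was -1.62 (SE 0.34, adjusted p = 0.0714, edgeR). miR-34b-5p, from the same primary transcript on chromosome 9, had 1 and 2 counts in 2i, 15 and 17 in R2i and 19 and 21 in serum. Its pooled counts in R2i were 12.2 times those in 2i, with a counting interval of 3.82 to 62.3. miR-34a-5p, from chromosome 4 and by far the most abundant with this seed, had 1266 and 1131 CPM in 2i and 1837 and 1656 in R2i, which was a log2 fold change of -0.54 (SE 0.23, adjusted p = 0.27, edgeR). The median of the 8 was -0.76 without 2i RB20 and -0.76 without R2i RB18, where 1 member was positive and 2 had an unadjusted p under 0.05 in each of these fits.

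Other miRNAs higher in R2i without passing the test came from several loci. miR-1a-3p, a muscle miRNA, had 0 and 0 counts in 2i, 7 and 9 in R2i and 52 and 55 in serum. It did not pass the filter on low counts with the 2i and R2i libraries alone, and was tested through its serum counts. Its mean level in R2i, 4.29 CPM, was 3.61 times the 1.19 CPM to which 3 counts per library amounted in 2i. This ratio leaves out the counting error of the few R2i counts. miR-10a-5p, from a Hox cluster, had 21.9 and 39.4 CPM in 2i, 68.6 and 133.01 in R2i and 398 and 541.3 in serum, with a log2 fold change of -1.72 (SE 0.42, adjusted p = 0.112, edgeR). miR-153-3p, a neural miRNA, had 27.2 and 31.7 CPM in 2i, 60.05 and 81.8 in R2i and 19.7 and 12.4 in serum. For miR-10a-5p the serum libraries were the highest and for miR-153-3p the lowest. The log2 fold change of miR-153-3p was -1.27 (SE 0.29, adjusted p = 0.0978, edgeR), and the list of 21 tested neural miRNAs had a median of -0.02, with 4 higher in R2i at an unadjusted p under 0.05, against 10.7% of all tested miRNAs.

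Members of 1 cluster on chromosome X differed among themselves. miR-322-5p and miR-503-5p, which are related to miR-15 and miR-16, had log2 fold changes of -1.34 and -1.16 (adjusted p = 0.185 and 0.162, edgeR). miR-351-5p, miR-450a-5p and miR-542-5p, from the same stretch, had 0.19, 0.46 and 0.62. At an unadjusted p under 0.05, 4 of the 9 tested members of this cluster were higher in R2i, all of them arms of miR-322 or miR-503, against 10.7% of all tested miRNAs.

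On the side of 2i, all 6 tested members of the miR-183, miR-96 and miR-182 cluster had a positive log2 fold change, against 50.8% of all tested miRNAs. This cluster, known from sensory organs, is abundant in ESCs and took 15.8% and 17.5% of the counts in 2i and 10.6% and 13.7% in R2i. The median was 0.81, and 3 members had an unadjusted p under 0.05, against 7.53% of all tested miRNAs in this direction, but 0 passed the test. miR-183-5p had 71016 and 70267 CPM in 2i and 26837 and 53294 in R2i, which was a log2 fold change of 0.82 (SE 0.38, adjusted p = 0.302, edgeR). Serum had 32160 and 54612 CPM, and R2i RB18 was the lowest of all 6 libraries. The 6 were higher in 2i in both lines, as were 37% of all tested miRNAs, and their median was 1.00 in RB18 and 0.47 in RB20. Without R2i RB18 the median of the fit was 0.52, and without R2i RB18 or 2i RB20 1 member had an unadjusted p under 0.05. For miR-182-5p, the values were 81888 and 104633 CPM in 2i and 65800.2 and 83567 in R2i, with a log2 fold change of 0.32 (SE 0.30, adjusted p = 0.621, edgeR).

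A list of miRNAs made without the Microprocessor, the nuclear complex of Drosha and Dgcr8, held 13 tested members, of which 11 were positive, with a median of 0.39. Higher in 2i at an unadjusted p under 0.05 were 5, namely both arms of miR-1839 and miR-1981 and miR-668-3p. Over all tested miRNAs, 50.8% were positive and 7.53% were higher in 2i at that p. Without R2i RB20 the median of the list was 0.75. miR-1981-3p, from an intron of Marc2 on chromosome 1, had 60.3 and 71.4 CPM in 2i, 18.9 and 25.5 in R2i and 16.97 and 12.4 in serum. The 2i libraries were above all the others, with a log2 fold change of 1.54 (SE 0.28, adjusted p = 0.0714, edgeR). miR-1839-3p, whose hairpin overlaps a small Cajal body RNA on chromosome 7, had 36.0 and 43.4 CPM in 2i and 10.3 and 16.02 in R2i. miR-320-3p and miR-484 of this list had -0.15 and 0.38.

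The Dlk1-Dio3 locus on chromosome 12, an imprinted domain whose miRNAs come from the maternal copy, had 78 tested miRNAs with 48 positive and 30 negative log2 fold changes. The median was 0.13 and 0 passed the test. Higher in 2i at an unadjusted p under 0.05 were 4, a share below the 7.53% of all tested miRNAs. Its miRNAs took 4.14% and 3.67% of the counts in 2i, 4.71% and 3.80% in R2i and 0.206% and 0.378% in serum. miR-541-5p had 7981 and 7498 CPM in 2i and 8912 and 9370 in R2i, which was a log2 fold change of -0.24 (SE 0.30, 95% confidence interval -0.93 to 0.45, adjusted p = 0.722, edgeR). miR-410-3p and miR-381-3p had log2 fold changes of 0.29 and -0.38 (adjusted p = 0.741 and 0.699), and that of miR-127-3p was -0.03 (SE 0.38, adjusted p = 0.982, edgeR). The 95% confidence intervals of these 4 reached from -0.61 or lower to 0.45 or higher, and differences of a size within them were not detectable.

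For the let-7 family, 12 of 14 tested members were positive with a median of 0.35, and 2 had an unadjusted p under 0.05, both higher in 2i. The shares over all tested miRNAs were 50.8% and 7.53%. let-7e-5p had 80.7 and 88.2 CPM in 2i and 44.6 and 55.5 in R2i, which was a log2 fold change of 0.74 (SE 0.26, adjusted p = 0.197, edgeR). The miR-17-92 cluster and its paralogs had a median of -0.07 over 28 tested miRNAs, with miR-363-3p (0.65) and miR-19b-2-5p (0.98) higher in 2i at an unadjusted p under 0.05, against 7.53% of all tested miRNAs, and 0 past the test. miR-92a-3p, which can come from 2 genes, had 43661 and 44085 CPM in 2i and 63085 and 58684 in R2i, which was a log2 fold change of -0.47 (SE 0.31, adjusted p = 0.464, edgeR). miR-16-5p, another of the 5 most abundant, had 39444 and 45799 CPM in 2i and 27589 and 44233 in R2i, with overlapping media.

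The remaining lists held no miRNA past the test. None of 11 tested miR-30 miRNAs (miR-30b-5p, 0.39) and none of 4 tested from miR-147, miR-184 and miR-187, which are known from ground-state ESCs (miR-184-3p, 0.68, but -0.34 without 2i RB20), had an unadjusted p under 0.05. The miR-99, miR-100 and miR-125 families had a median of 0.40 over 8 tested miRNAs, which was 0.11 without R2i RB18 and 0.64 without R2i RB20, and miR-99b-5p stood at 2417 and 2019 CPM in 2i and 965 and 1577 in R2i. The epithelial miR-200 family with miR-203 and miR-205 had a median of -0.18 over 11. In it, miR-203-3p had 19 and 33 counts in 2i, 22 and 54 in R2i and 332 and 462 in serum, so that both media were far below serum. Endoderm miRNAs had a median of -0.31 over 3 tested, with miR-375-3p at 1 and 2 counts in 2i and 12 and 4 in R2i. Imprinted miRNAs of Igf2, Mest, Gnas and Peg loci had a median of -0.46 over 9, which ran from -1.03 without 2i RB18 to -0.16 without R2i RB18, with miR-483-3p at 2 and 4 counts in 2i and 4 and 12 in R2i. Muscle miRNAs had a median of -0.95 over 4 tested. In the fit to the 2i and R2i libraries alone, which left out miR-1a-3p, that median was 0.086. miR-375-3p and miR-483-3p also did not pass the filter in that fit. Mesenchymal and fibroblast miRNAs had a median of 0.09 over 17. Over the 62 tested miRNAs of chromosome X the median was 0.08, and over the 12 of a rodent cluster near Fmr1 it was -0.14, with miR-743b-3p at 0.59.

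Where both arms of a hairpin were tested, they usually had the same sign. The signs differed for 40 of 178 hairpins, with a median absolute difference between the arms of 0.265 on the log2 scale. Both arms were more than 2-fold apart between the media for 16 hairpins, and in all 16 the signs were the same. Among these were miR-211, miR-152, miR-142a, miR-181c, miR-1839 and miR-1981 on the side of 2i, and miR-302a, miR-302c, miR-302d, miR-34b, miR-34c, miR-322 and miR-503 on that of R2i. Both arms come from 1 precursor and are not independent.

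The size of the difference between media was set beside that between lines. In RB18, 107 of the 571 miRNAs (18.7%) were more than 2-fold apart between 2i and R2i, and in RB20 68 (11.9%). Between RB18 and RB20, 40 (7.01%) were more than 2-fold apart within 2i and 54 (9.46%) within R2i. Each of these is a difference of 1 library against 1 and carries no test. Over the 445 miRNAs that reached 10 counts in each of the 4 libraries, the shares between media were 13.7% and 10.1% and those between lines 3.596% and 6.97%. More than 2-fold higher in 2i in both lines were 17 miRNAs (2.98%), and 18 were more than 2-fold higher in R2i in both (3.15%).

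**Figure D4:**
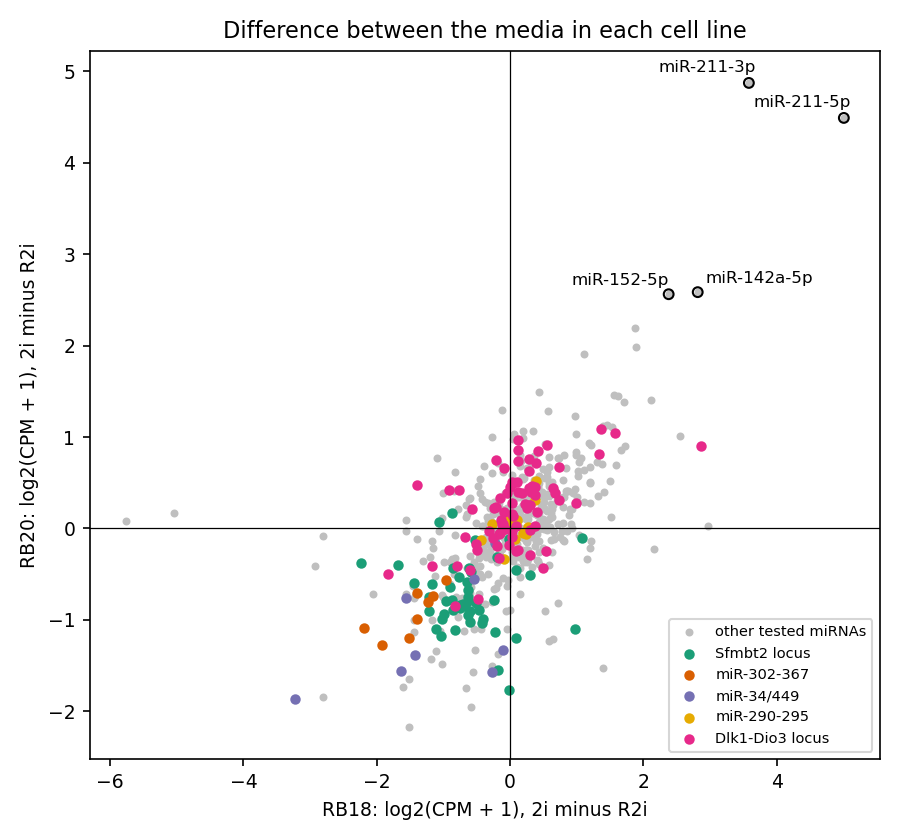
Difference between 2i and R2i in log2(CPM + 1) in RB18 (horizontal axis) and RB20 (vertical axis) for the 571 tested miRNAs, with 5 groups colored. miR-211-5p lies at 5.01 and 4.49, and the miR-302/miR-367 members lie in the lower left with medians of -1.40 and -0.90.

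Detection was compared by a minimum of 10 counts in both libraries of a medium and a maximum of 3 in both of the other. Of 500 miRNAs with at least 10 counts in both 2i libraries, 3 had at most 3 in both R2i libraries, which were miR-211-3p, miR-6546-5p and miR-6896-5p. miR-6546-5p had 10 and 16 counts in 2i and 2 and 2 in R2i, and miR-6896-5p 14 and 14 against 2 and 1. Of 457 with at least 10 counts in both R2i libraries, miR-34b-5p alone had at most 3 in both 2i libraries. A count of 3 amounted to between 0.835 CPM in R2i RB20 and 2.88 CPM in R2i RB18 (scaled by library totals), and a level below that was not detectable.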

How the data were processed

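Small RNA libraries of 3 media and 2 lines were used as deposited. The deposited counts are whole numbers for 1907 mature miRNAs, which the authors made without normalization. The submitters' processing notes name FastQC 0.11.5, cutadapt 1.3, Bowtie 1.1.2 and featureCounts 1.5, and the build mm10. Reads of identical or near-identical miRNAs cannot be told apart in such counts, and 89 of the names had more than 1 gene. The second table holds log2 values that the authors deposited for 1233 miRNAs. All 7398 of them equalled log2(count / size factor + 1) within 0.02, and they served only in an alternative.

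The main test used edgeR 4.0.16 (R 4.3.3). TMM scaling, filterByExpr (minimum count 10, minimum total 15) and the quasi-likelihood test were run with 1 coefficient per medium over all 6 libraries. Standard errors (SE) came from the size of the log2 fold change over the square root of F. The biological coefficient of variation was 24.6%. The script was tested on simulated data. Alternatives were library totals, median-of-ratios factors, DESeq2 1.42.0, limma 3.58.1 on the log2 values, other filters, fewer libraries, the line as a block, and leaving out the 5 most abundant miRNAs. The lines pair the libraries by label, since RB18 and RB20 are each 1 cell line. The RB20 minus RB18 differences correlated between 2i and R2i at r = 0.248 over 571 miRNAs, which share libraries and are not independent.

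Named were all miRNAs past the test, the other arm of each, miRNAs the study names for this contrast or the ground state, the 5 most abundant, and the member with the smallest p in each of 25 lists. Other miRNAs, such as miR-34b-5p and miR-6546-5p, and relatives by seed, arm or cluster, were chosen after their values were seen. The lists, their members and the contrast were chosen with earlier results of these data known, so lists are described by counts and medians without a test. Hairpins were placed on GRCm38 by RefSeq and GENCODE M21, and mature sequences were found for 463 of the 571 tested names. Intervals on counts cover counting error only. Summaries used Python 3.11.15 with pandas 2.3.3, and plots matplotlib 3.10.9. No other columns of values were present (0 unused).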

Additional observations from a re-analysis of the deposited data

Results flagged for a closer look

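Some results pointed in opposite directions in RB18 and RB20, with 1 library of each medium per line, so that none of these differences was tested. Values are log2(CPM + 1) in 2i minus R2i, in RB18 first. miR-127-3p differed by 0.0261 and -0.0983 and miR-295-3p by 0.2 and -0.0543. The summed level of the 5 miRNAs with the seed AAGUGCU whose sequence was at hand differed by 0.126 and -0.0625, taken as log2 of the summed CPM with no 1 added. The medians of all tested miRNAs were 0.0359 and -0.00523.

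The cluster of rodent miRNAs near Fmr1 on chromosome X had the widest gap among the lists that changed sign, with medians of -0.715 and 0.362 over 12 tested members. The medians were -0.11 and 0.198 for chromosome X as a whole, 0.156 and -0.212 for neural miRNAs, and -0.0798 and 0.275 for mesenchymal and fibroblast miRNAs. They were 0.125 and -0.118 for the cluster of miR-322 and miR-503, 0.29 and -0.0279 for miR-30, and 0.047 and -0.0511 for blood and endothelial miRNAs.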

How the results depend on the processing

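The number of miRNAs called and the balance of direction varied with the method. At an adjusted p under 0.01, where 2 were higher in 2i and 0 in R2i, DESeq2 called 8 and 6, and the fit with no filter on low counts 14 and 11. In the fit with no filter, 1233 miRNAs entered and the median total degrees of freedom were 3699 in place of 7.66. With at least 10 counts required in each 2i and R2i library, 1 was higher in 2i, and in the fit to the 2i and R2i libraries alone 0 were. More than 2-fold in both lines, with no test, were 17 and 18. At an adjusted p under 0.05, where the counts were 3 and 0, DESeq2 gave 13 and 16, no filter 20 and 21, and the stricter filter 5 and 3. The cause of the difference between edgeR and DESeq2 was not tested.

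Pairing the libraries by line, with the replicate block, left 0 miRNAs higher in 2i at 0.01 and 4 at 0.05, where miR-152-3p joined the other 3. It changed no other call among the named miRNAs or lists.

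Leaving out 1 library at a time gave between 0 and 3 higher in 2i at 0.01. That number was 0 without serum RB18, and 1 without 2i RB20 or R2i RB20. The number at an unadjusted p under 0.05, 104 with all libraries, was 52 without 2i RB20 and 69 without R2i RB18. For miR-211-3p the highest adjusted p was 0.0342, without R2i RB20. In the same fits the median ranged from -1.751 to -0.4666 for miR-302/miR-367, from -1.671 to -0.7566 for miR-34 and miR-449, and from -0.8297 to -0.6744 for the Sfmbt2 locus. For Dlk1-Dio3 it ranged from 0.09265 to 0.2775.

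The median of miR-290/miR-295, 0.06, was -0.0274 with library totals, 0.000563 with median-of-ratios factors, 0.0006341 with DESeq2, 0.01 with limma, -0.03109 with the stricter filter and -0.02167 without the 5 most abundant miRNAs. The median of all tested miRNAs, 0.0127 in the main fit, moved in the same direction in each. In the same order it was -0.0668, -0.0417, -0.0515, -0.04, -0.0615 and -0.0653. The sign of some list medians turned. For muscle miRNAs it was 0.1396 with the stricter filter and 0.08584 in the fit to 4 libraries. Over the fits without 1 library, the median ran from -0.3238 to 0.04472 for the miR-200 family, from -0.5528 to 0.07864 for endoderm miRNAs and from -0.3538 to 0.164 for miR-147, miR-184 and miR-187, with the positive value without R2i RB20. It ran from -0.1866 to 0.205 for the cluster of miR-322 and miR-503, negative without R2i RB18, and from -0.615 to 0.439 for the rodent cluster near Fmr1, positive without R2i RB18. The median of the list linked to TGF-β was 0.3269 without 2i RB18, that of muscle miRNAs -2.018 without 2i RB18 and that of chromosome X -0.05348 without R2i RB20. The medians of the Wnt, neural and blood lists, all close to 0 with all libraries, turned sign in some of these fits.

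R2i RB18, with 1041858 counts, had the least depth, and of the 1148 miRNAs counted in 2i or R2i, 577 were not tested.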
